A study of Macaca mulatta and Mus musculus with 5 samples.

Results

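The cells described here were chosen as antibody-secreting plasma cells that lacked transcripts of the B cell surface gene MS4A1. They came from meninges and spleen of the rhesus macaque. A barcode was counted as such a cell where at least 300 genes were detected, JCHAIN had at least 5 UMIs (unique molecular identifiers, each standing for a captured transcript), MZB1 had at least 3, and MS4A1, RGS13 and CD3E had 0. In all, 263 of the 20998 macaque barcodes with at least 300 genes met these conditions: 54 and 60 in the 2 meningeal channels, and 55 and 94 in the 2 spleen channels. JCHAIN encodes the chain that joins immunoglobulin M and immunoglobulin A units into polymers, and MZB1 encodes an endoplasmic reticulum protein that aids immunoglobulin assembly.

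A plasma cell is the terminal stage of a B cell that has been activated by antigen. It shuts down much of the B cell program, such as antigen presentation and B cell receptor signalling, and enlarges the endoplasmic reticulum through the transcription factors PRDM1, IRF4 and XBP1 in order to secrete antibody. Survival depends on the tissue niche, where the receptor TNFRSF17 (BCMA) binds soluble ligands and CXCR4 binds a stromal chemokine. The meninges, the membranes around the brain, are known to hold plasma cells, and the spleen is a site where they are formed.

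All 4 libraries came from female Chinese rhesus macaques with a stated age of 4 to 8 years, untreated as far as the labels say, and the cells are given as primary immune cells. The sort for macaque is given as CD45–CD11b–CD3–, and 8000 cells were loaded per channel for 10x 3'-end sequencing. Neither the number of animals nor whether the 2 channels of a tissue came from different animals is stated. All p-values therefore measure only the spread between channels, which may be technical.

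The cells were chosen by the measured levels of JCHAIN, MZB1, MS4A1, RGS13 and CD3E, so these 5 genes are given as description and were not tested. Of the barcodes with enough JCHAIN and MZB1 (85, 84, 184 and 275 in meninges 1, meninges 2, spleen 1 and spleen 2), 28, 18, 121 and 174 had MS4A1. Of these 20, 15, 67 and 126 met every other condition and were kept out by MS4A1 alone. At the edge of the rule, the barcodes with exactly 1 MS4A1 UMI (8 in meninges, 28 in spleen) had 182 and 300 CPM (counts of a gene per 1000000 UMIs) of XBP1, beside the 294 and 329 of the chosen cells. The barcodes with at least 2 MS4A1 UMIs (27 and 165) had 88.7 and 41.1, together with 1153 and 1397 CPM of CD79B, a chain of the B cell receptor, where the chosen cells had 109 and 208. Only 2 meningeal and 8 spleen cells sat just inside the JCHAIN condition with 5 to 9 UMIs, and 7 barcodes of each tissue sat just outside with 3 or 4.

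Of 11 listed plasma cell markers that the rule did not use, 6 were found in a larger share of plasma cells than of both comparison classes in all 4 channels. These were DERL3, CRELD2, TNFRSF17, AQP3, XBP1 and SSR4. PRDM1, SDC1 and POU2AF1 were so in 3 channels, and FKBP11 and TXNDC5 were not listed in the tables. Each cell was thinned to 1500 UMIs so that channels of different depth could be compared, and the shares of plasma cells, of MS4A1-positive B cells and of GZMB-positive cytotoxic lymphocytes with at least 1 UMI of a gene were counted. DERL3, an endoplasmic reticulum degradation component typical of secretory cells, was found in 77.8 and 67.8% of plasma cells of the meningeal channels and in 69.8 and 81.3% of those in spleen. It was found in 6.75 to 13.3% of B cells and in at most 1.12% of cytotoxic lymphocytes, which should lack it. CRELD2, an endoplasmic reticulum stress-induced chaperone, was found in 22.2 and 30.5% of meningeal and 37.7 and 48.4% of spleen plasma cells, against at most 1.75% of B cells and 3.5 to 5.15% of cytotoxic lymphocytes. TNFRSF17 was found in 14.8, 10.2, 9.43 and 7.69%, above the at most 0.5% of B cells and the at most 0.250% of cytotoxic lymphocytes.

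AQP3, a channel for water and glycerol, was found after thinning in 1.85, 13.6, 5.66 and 6.59% of plasma cells and in none of the thinned B cells or cytotoxic lymphocytes. Without thinning, AQP3 was found in 27.8, 41.7, 32.7 and 18.1% of plasma cells and TNFRSF17 in 51.9, 45, 23.6 and 19.1%. SDC1 (CD138), the classical surface marker of plasma cells, was at or under 3.77% after thinning, and POU2AF1, a B lineage coactivator, at or under 5.09%. Some genes known for high levels in plasma cells were not more frequent here in some or all channels. CD38, a surface enzyme, was found in 13.6 to 30.2% of plasma cells, in 30.3 to 34.3% of B cells and in 33.8 to 55.9% of cytotoxic lymphocytes. IRF4 was found in 14.8 and 20.3% of meningeal plasma cells, below the 28.5 and 25.5% of meningeal B cells. In the 2 spleen channels its share was larger in plasma cells than in both comparison classes. The lowest share over the channels was 7.55% in plasma cells and 4.5% in B cells. BANK1, an adaptor of B cell receptor signalling, was found in 1.85 to 5.66% of thinned plasma cells and in 34.8 to 57% of B cells. Its share in cytotoxic lymphocytes, 1.25 to 10.3%, was in the range of background in which that of plasma cells also lay. The median depth was 10872 and 11246 UMIs per plasma cell in meninges and 7505 and 6255 in spleen, above the 4856, 4923, 3482 and 2967 of B cells and the 3877, 3837, 2610 and 2187 of cytotoxic lymphocytes.

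Markers of other cell types were present at low levels, and some differed between tissues. No barcode sequence of a plasma cell occurred as a plasma cell in a second channel. At least 2 UMIs from T, NK or myeloid marker lists were found in 23, 17, 17 and 19 of the cells. The 9 NK and cytotoxic markers summed to 256 CPM in meninges 1 and to 12.2 to 20.5 in the other channels, while cytotoxic lymphocytes held 14876 to 16221. The 13 myeloid markers summed to 104, 47.7, 38.6 and 6.08, higher in both meningeal channels than in spleen. Without the cells that had T, NK or myeloid markers, 293 genes differed between tissues in the test described below, beside 336 with them. Both sets shared 221 genes, and 3584 genes were tested in place of 4980. CD3D, a T cell receptor component, was present in 31.5, 23.3, 41.8 and 28.7% of the cells although CD3E was 0 by rule. The labels list each channel as a sample, and each was counted as 1. The sums of same-tissue channels differed by more than counting noise (chi-square over degrees of freedom 6.26 in meninges and 3.37 in spleen), a comparison that cannot tell separate samples from channels loaded with unlike cells of 1 sample.

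Plasma cells made up a similar share of the barcodes in both tissues. They were 1.33% (95% Clopper-Pearson interval 0.999 to 1.73) and 1.39% (1.06 to 1.79) in meninges, and 0.942% (0.710 to 1.22) and 1.39% (1.12 to 1.69) in spleen. The means were 1.36% ± 0.0462 and 1.16% ± 0.314 (SD, n = 2 each, exact two-sided permutation p = 0.667), where 0.333 is the smallest p that 2 against 2 channels can give. The intervals cover counting error only. The order of the tissues followed the rule: without the MS4A1 condition the meningeal shares were 1.82 and 1.74% and the splenic ones 2.09 and 3.24%. Without spleen 1 the difference was -0.026 percentage points. Plasma cells gave 3.35, 3.71, 2.32 and 2.99% of all UMIs of their channels.

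Most plasma cells were dominated by 1 of 4 abundant features. These were IGHM, the constant region of immunoglobulin M, IGHE, that of immunoglobulin E, and ENSMMUG00000015202 and ENSMMUG00000002764, identifiers that the deposited tables give without a gene symbol and that are therefore left unnamed. A feature was called dominant where it took at least 1% of the cell's UMIs, and the 4 features were chosen after their levels had been seen. In 258 of the 263 cells (98.1%) exactly 1 of the 4 was dominant. None was in 4 cells, all meningeal, and a pair was in 1 cell of spleen 2. In the cells that each feature dominated, its median share of all UMIs was 7.40% for IGHM, 15% for IGHE, 16.9% for ENSMMUG00000015202 and 15.7% for ENSMMUG00000002764.

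ENSMMUG00000015202 dominated most cells, namely 35 and 36 in meninges (64.8 and 60%) and 42 and 77 in spleen (76.4 and 81.9%). A further identifier, ENSMMUG00000040771, reached 1% in 178 cells, and all 178 were dominated by ENSMMUG00000015202. Together these 2 identifiers took 11.28 and 6.17% of all plasma cell UMIs, against 0.281 and 0.169% of the UMIs of the other barcodes. Another identifier, ENSMMUG00000044861, took 5.27% of plasma cell UMIs, more than IGHM (1.01%), IGHE (0.470%) or ENSMMUG00000002764 (1.70%). It reached 1% in 37 cells (5, 7, 3 and 22 by channel) and up to 63.9% of the UMIs of a cell. Of these 37 cells, 25 were also dominated by ENSMMUG00000015202, 6 by IGHM, 3 by IGHE and 3 by ENSMMUG00000002764. With it counted beside the 4, 221 cells had 1 and 38 had a pair. IGHE dominated 3 cells in each meningeal channel and 2 in spleen 2, and it was not listed for spleen 1.

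ENSMMUG00000002764 dominated 8 and 12 meningeal cells (14.8 and 20%) and 2 and 3 spleen cells (3.64 and 3.19%). The channels of the 2 tissues did not overlap, with means of 17.4% ± 3.67 in meninges and 3.41% ± 0.315 in spleen (SD, n = 2 each, exact two-sided permutation p = 0.333). Its summed level was 38193 and 27645 CPM in meninges and 3232 and 2609 in spleen, a log2 difference of 3.5 ± 0.16 (SE, edgeR quasi-likelihood adjusted p = 1.97e-07). In spleen 57.6 and 69.2% of its UMIs came from 1 cell, against 23.8 and 16.9% in meninges. Fewer cells and less RNA per cell cannot be told apart in the sums. By cell, its median share of UMIs in the cells it dominated was 17.4 and 15.9% in meninges and 9.39 and 8.07% in spleen. The spleen medians rest on 2 and 3 cells.

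IGHM did not differ between tissues beyond the spread of channels. Its sum was 13080 and 8494 CPM in meninges and 10124 and 8806 in spleen (log2 difference 0.19 ± 0.17, adjusted p = 0.573), and without meninges 2 it was 0.48 (adjusted p = 0.00547) and without spleen 1 0.28 (adjusted p = 0.0354). The 37 cells dominated by IGHM were called IGHM-high. They were 5, 8, 11 and 13 cells, or 9.26, 13.3, 20 and 13.8% of the plasma cells of their channels. The means were 11.3% ± 2.88 in meninges and 16.9% ± 4.36 in spleen (SD, n = 2 each, exact two-sided permutation p = 0.333). Without the MS4A1 condition the order turned, to 12.7 against 11.5%. The share of IGHM ran from 0.5 to 2% of UMIs in only 6 cells, of which 4 were in spleen 1.

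**Figure D1:**
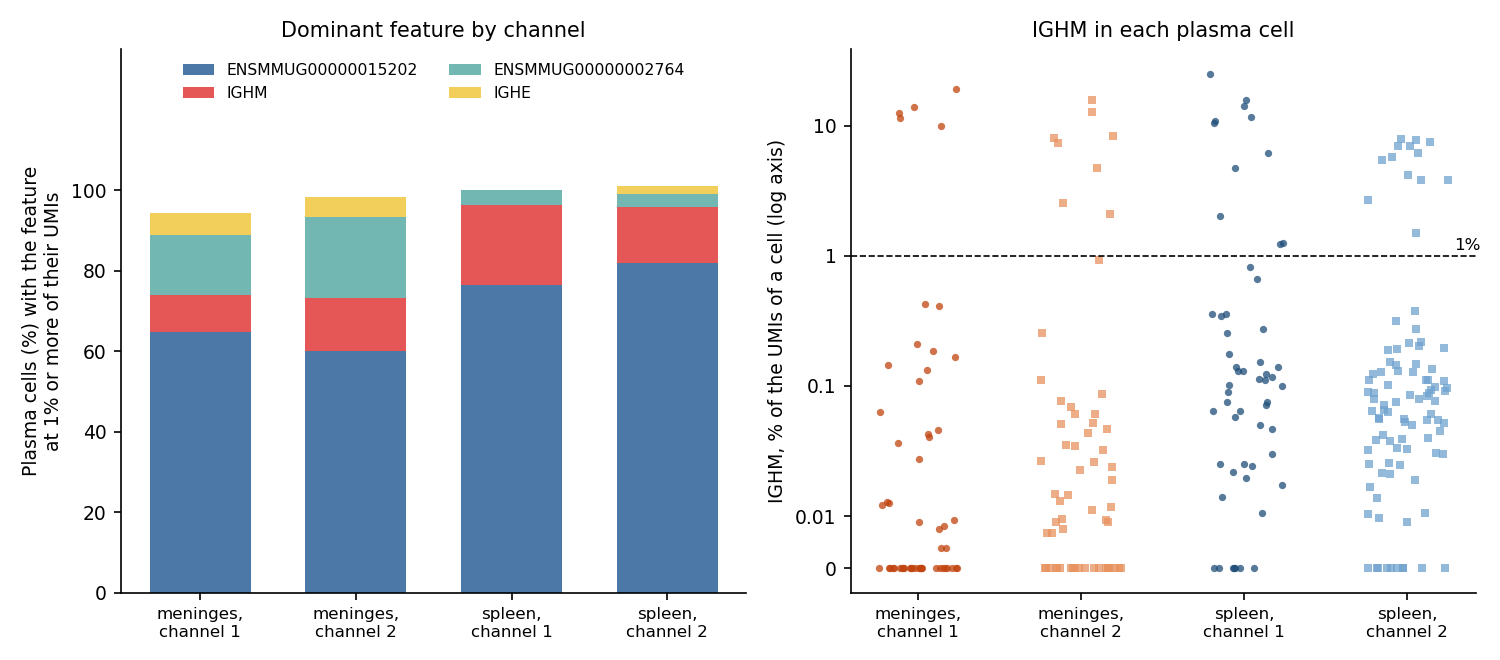
Left, the percent of plasma cells per channel in which each of 4 features took at least 1% of the cell's UMIs; bars start at 0, and spleen 2 passes 100% because 1 cell had a pair of them. Right, the percent of UMIs from IGHM in each cell on a log axis with zeros at the bottom and a dashed line at 1%; few cells lie near the line, and the wider ENSMMUG00000002764 bands of the meningeal channels stand for 14.8 and 20% of cells.

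To compare the tissues, UMI counts of the plasma cells were summed per channel and tested across all genes. Of 4980 genes tested, 336 (6.75%) passed an adjusted p of 0.05, with 263 (5.28%) higher in meninges and 73 (1.47%) lower. At an unadjusted p under 0.05 there were 1036. The 2 channels of one tissue lay above both of the other, in the meningeal direction for 25.3% of all genes and in the splenic direction for 26.1%. DESeq2 called 183 genes, and cells with at least 20 JCHAIN UMIs gave 160. Of 72 genes named for their change or their list and past the threshold, 43 stayed past it whichever of the 4 channels was left out. The cell rule moved more of them: 37 of 69 stayed past it with at least 20 JCHAIN UMIs, 47 of 65 without cells with T, NK or myeloid markers and 52 of 71 without cells with early B markers. Cells with early B markers were only 1, 1, 0 and 1 in meninges 1, meninges 2, spleen 1 and spleen 2. Without them 269 genes were called in place of 336. Without the MS4A1 condition 50 of 72 stayed past it, 13 missed it and 9 turned direction.

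Genes that cells switch on within minutes of a stimulus made up 5 of the 12 largest rises in meninges, namely ATF3, KLF6, FOS, DUSP1 and FOSB. Of 25 listed immediate early genes 18 were tested, and 14 of them were higher in meninges and 0 lower, with a median log2 difference of 2.66 against -0.0053 over all genes. FOS, a subunit of the transcription factor AP-1, stood at 3441 and 3580 CPM in meninges and at 93.2 and 47.5 in spleen (log2 difference 5.67 ± 0.25, adjusted p = 1.52e-07). KLF6, a zinc finger transcription factor, stood at 578 and 663 against 5.83 and 7.41 (6.49 ± 0.26, adjusted p = 1.11e-07), with UMIs in 71 of 114 meningeal and 5 of 149 spleen cells. In neither gene did the tissues come near each other.

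ATF3, a stress-responsive repressor, was at 319 and 567 CPM in meninges, and spleen held 1 UMI in all. The ratio was 540, with a counting interval of 96.6 to 21367 and an adjusted p of 1.64e-06. FOSL2 was at 0 in both spleen channels and at least 12.9-fold higher in meninges. DUSP1, a phosphatase that ends MAP kinase signals, was at 1049 and 1044 against 21.4 and 53.4 (4.75 ± 0.28, adjusted p = 1.18e-06). FOSB reached 653 and 727 against 42.7 and 34.1 (4.17 ± 0.20, adjusted p = 2.18e-07), and JUN 2136 and 2167 against 581 and 516 (1.97 ± 0.13, adjusted p = 3.12e-06). The other called members of the list were EGR1, NR4A1, NR4A2, ZFP36, GADD45B, CD83 and MYC, with log2 differences between 2.03 and 3.06. EGR1, at 20.5 and 24.1 against 1.94 and 2.97 CPM, had adjusted p-values of up to 0.273 without single channels (meninges 1, meninges 2 or spleen 1). After thinning, FOS was found in 57.4 and 55.9% of meningeal and in 5.66 and 3.30% of spleen plasma cells.

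The MS4A1-positive B cells of the same channels showed the list as well, where 25 of 25 members tested were higher in meninges, with a median of 3.57 and a background of 22.5% of 10799 genes. The tissue difference in this list was therefore also present in cells outside the plasma cell rule.

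Chaperones and feedback inhibitors moved in the same direction. Of 18 heat shock genes tested, 8 were higher in meninges and 0 lower (median 0.83). Of 12 NF-kB feedback genes 4 were higher and 0 lower (median 1.04), beside 5.28% of all genes called higher. In MS4A1-positive B cells of the same channels, 16 of 19 heat shock genes were higher and 1 lower. There 14 of 15 NF-kB feedback genes were higher and 0 lower, beside 22.5% of all genes called higher. HSPB1, a small heat shock protein, was at 432 and 256 CPM in meninges and 9.71 and 31.1 in spleen (log2 difference 3.98 ± 0.38, adjusted p = 5.5e-05). HSP90AA1, a cytosolic chaperone, was at 2208 and 1617 against 629 and 498 (1.76 ± 0.17, adjusted p = 6.9e-05). TNFAIP3 (A20), which switches off NF-kB signalling, was at 102 and 183 against 15.5 and 7.41 (3.68 ± 0.41, adjusted p = 2.02e-04). NFKBIA, the inhibitor that NF-kB itself induces, was at 981 and 1420 against 219 and 150 (2.71 ± 0.22, adjusted p = 2.05e-05).

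Metallothioneins, small proteins that bind zinc and copper, were higher in the meningeal channels. MT2A was at 1783 and 2501 CPM in meninges and 64.1 and 194 in spleen (log2 difference 4.02 ± 0.36, adjusted p = 3.8e-05). MT1X was at 570 and 953 against 3.88 and 10.4 (6.63 ± 0.37, adjusted p = 9.21e-07). MT1HL1 was at 0 in both spleen channels and at least 39.6-fold higher in meninges (adjusted p = 3.08e-05), from 21 cells, of which 1 gave 70.8% of the UMIs in meninges 1. These genes are near-identical copies, and how the reads were shared among them is uncertain.

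The remaining named rises were AREG, PCSK1N and CST6. AREG, a growth factor of the EGF family, was at 121 and 75.3 CPM in meninges and 0 and 2.97 in spleen, a ratio of 57.1 with a counting interval of 15.5 to 477 (adjusted p = 1.02e-04). PCSK1N, an inhibitor of a prohormone convertase, was at 293 and 230 against 23.3 and 10.4 (log2 difference 4.00 ± 0.31, adjusted p = 1.49e-05). CST6, a secreted cysteine protease inhibitor, was at least 29.5-fold higher, but it came from 4 cells, and 1 cell in each meningeal channel gave 93.9 and 80.7% of its UMIs.

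**Figure D2:**
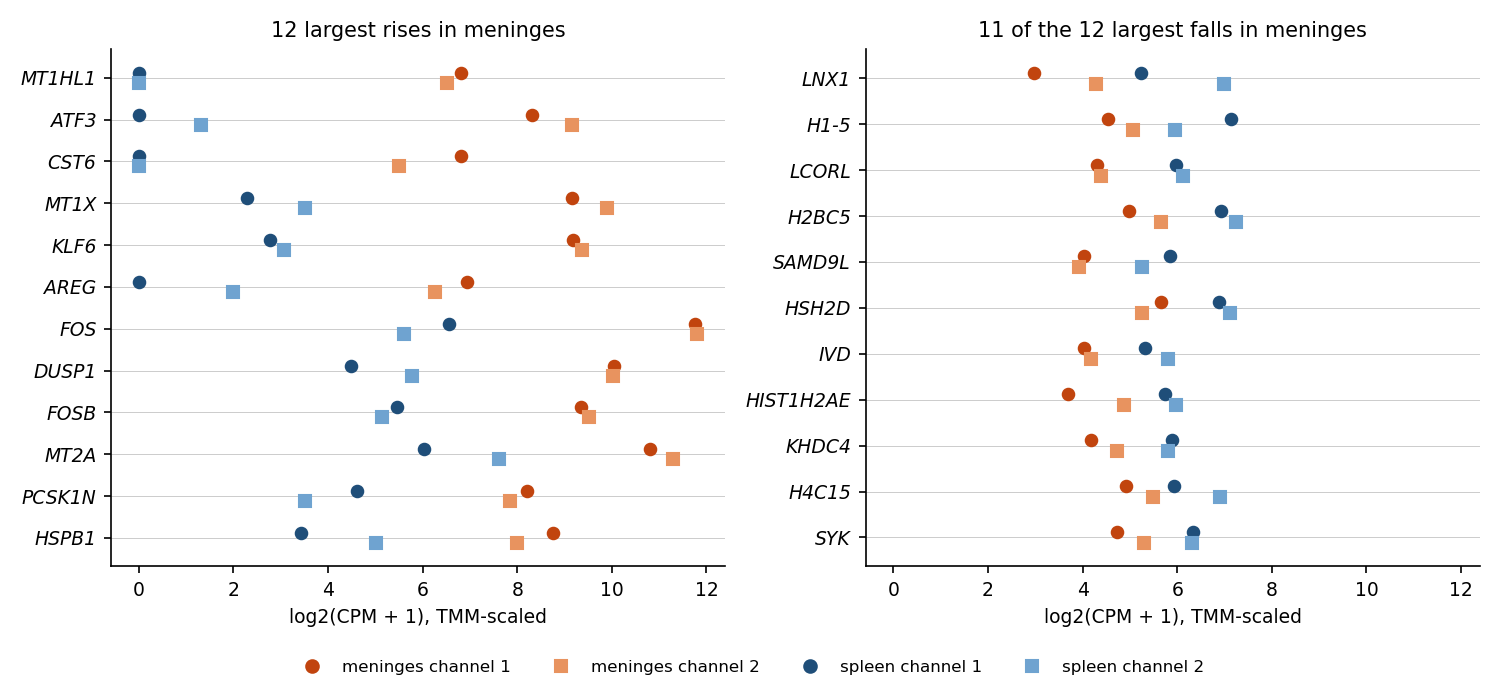
Level of the 12 largest rises and 11 of the 12 largest falls in plasma cells as log2(CPM + 1), scaled by trimmed mean, with 1 point per channel. The points of the tissues are apart in every gene shown, as the rule for naming them required, and the gap is wider among the rises (log2 difference 3.98 or more) than among the falls (1.28 to 2.67 in size).

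Genes that hold lymphocytes in tissue were among those higher in meninges. Of 14 homing and retention genes tested, 5 were higher in meninges and 1 lower (median 0.76), beside 5.28 and 1.47% of all genes. In MS4A1-positive B cells of the same channels, 12 of 22 were higher and 6 lower, beside 22.5 and 19.2% of all genes. CD69, GPR183, RGS1 and CXCR4 were among the higher ones there, and ITGA4 was among the lower ones. CD69, which keeps cells in tissue by pulling the egress receptor off the surface, was at 340 and 153 CPM in meninges and 52.4 and 28.2 in spleen (log2 difference 2.63 ± 0.39, adjusted p = 0.00181). CXCR4 was at 276 and 162 against 95.2 and 84.5 (1.28 ± 0.26, adjusted p = 0.0117), and it missed the threshold under 8 of 21 alternatives, among them at least 20 JCHAIN UMIs (0.91, adjusted p = 0.0962), no MS4A1 condition (0.086, adjusted p = 0.771) and no cells with T, NK or myeloid markers (0.62, adjusted p = 0.255). GPR183, a receptor for oxysterols that positions B lineage cells, was at 157 and 69.6 against 21.4 and 35.6 (1.93 ± 0.41, adjusted p = 0.0142, and 0.0522 with at least 20 JCHAIN UMIs). In all 3 genes both meningeal channels lay above both splenic ones, and meninges 1 was the higher of the meningeal channels.

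RGS1, which dampens chemokine receptor signals, was at 95.5 and 285 against 73.8 and 46 (1.71 ± 0.43, adjusted p = 0.0355). Without meninges 2 its difference was 0.71 (adjusted p = 0.163). The integrin subunits went in opposite directions. ITGA4, which pairs with ITGB1 or ITGB7, was at 357 and 290 against 190 and 163 (0.87 ± 0.18, adjusted p = 0.0142), and ITGAE, the subunit that binds E-cadherin, was at 106 and 128 against 218 and 227 (-0.92 ± 0.19, adjusted p = 0.0128). Without meninges 1 these 2 had adjusted p-values of 0.057 and 0.05. CCR10, a homing receptor of mucosal plasma cells, had 25.6, 32.7, 15.5 and 26.7 CPM and adjusted p = 0.594.

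Survival genes rose in meninges only in part. BCL2, the inhibitor of mitochondrial cell death, was at 203 and 165 CPM in meninges and 31.1 and 28.2 in spleen (log2 difference 2.63 ± 0.25, adjusted p = 4.87e-05), the largest change of the 9 BCL2 family genes tested. MCL1, on which plasma cells depend, was at 587 and 602 against 317 and 372 (0.78 ± 0.15, adjusted p = 0.00899), and no member of the family was lower. In MS4A1-positive B cells of the same channels, 9 of 12 family genes were higher and 0 lower, with BCL2 and MCL1 among the higher ones. There 22.5% of all genes were called higher. In plasma cells TNFRSF17, which receives the survival signal that sustains MCL1, was at 106 and 82.4 against 44.7 and 31.1 (1.32 ± 0.28, adjusted p = 0.015). It was one of 3 genes higher among 11 survival and niche receptors tested, with 0 lower, beside 5.28% of all genes called higher. The others were the cytokine receptor chain IL2RG (0.98, adjusted p = 0.0257) and SLAMF7 (0.83, adjusted p = 0.0301), a surface receptor of plasma cells. Without spleen 1 the adjusted p-values of IL2RG and SLAMF7 were 0.0918 and 0.0868, and without meninges 1 that of SLAMF7 was 0.0948. SDC1 fell under the filter on low counts, with 4.45 to 9.94 CPM.

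Of 14 plasma cell regulators tested, 3 were higher in meninges and 0 lower (median -0.059), beside 5.28% of all genes called higher. These 3 were transcription factors. PRDM1, which represses the B cell program, was at 247 and 220 CPM in meninges and 138 and 128 in spleen (log2 difference 0.82 ± 0.18, adjusted p = 0.0197). IRF4 was at 184 and 209 against 101 and 123 (0.80 ± 0.20, adjusted p = 0.0319), and KLF2, a factor that guides plasma cell homing, at 29.0 and 51.1 against 1.94 and 7.41 (2.97 ± 0.57, adjusted p = 0.00885). With cells thinned to 2000 UMIs PRDM1 had 0.40 (adjusted p = 0.468) and IRF4 0.81 (adjusted p = 0.134). By DESeq2 the adjusted p-values of PRDM1, IRF4 and KLF2 were 0.170, 0.267 and 0.0515. With at least 20 JCHAIN UMIs PRDM1 and IRF4 had adjusted p-values of 0.0865 and 0.0685. In IGHM-low cells PRDM1 had 0.52 (adjusted p = 0.141). Each of the 3 missed the threshold without some channel: PRDM1 without meninges 1 or spleen 2 (adjusted p = 0.059 and 0.0549), IRF4 without meninges 2 or spleen 1 (0.0641 and 0.109), and KLF2 without meninges 2 (0.112). XBP1, the driver of endoplasmic reticulum growth, was at 251 and 364 against 336 and 292 (-0.03 ± 0.20, adjusted p = 0.967), with the channels of the tissues overlapping. In MS4A1-positive B cells of the same channels, 8 of 15 regulators were higher in meninges and 2 lower, beside 22.5 and 19.2% of all genes. PRDM1, IRF4, KLF2 and XBP1 were among the higher ones there.

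No gene of 3 lists of the secretory apparatus was called higher in meninges, where 5.28% of all genes were called higher and 1.47% lower. Of 22 genes for signal peptides and translocation into the endoplasmic reticulum, all were tested, 0 had a positive difference (median -0.33), 2 were lower and 0 higher. Of 31 endoplasmic reticulum folding genes tested 3 were lower and 0 higher (median -0.27), and of 35 endoplasmic reticulum to Golgi genes 3 were lower and 0 higher (median -0.18). HSP90B1 (GRP94), a luminal chaperone, was at 5682 and 5325 CPM in meninges and 8238 and 9977 in spleen (log2 difference -0.73 ± 0.12, adjusted p = 0.00277). It was lower in both meningeal channels. The call held without each channel but not with at least 20 JCHAIN UMIs (-0.58, adjusted p = 0.0962), without cells with early B markers (-0.55, adjusted p = 0.0567) or without those with T, NK or myeloid markers (-0.60, adjusted p = 0.116).

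The other called secretory genes had smaller differences. SSR1, a subunit of the translocon-associated complex, was at 234 and 223 against 354 and 386 (-0.70 ± 0.16, adjusted p = 0.0228). SEC11C, the catalytic part of the signal peptidase, was at 1273 and 1296 against 1857 and 2055 (-0.61 ± 0.12, adjusted p = 0.0114). Under 8 of 22 alternatives it kept its direction but missed the threshold, with 0.127 with at least 20 JCHAIN UMIs and 0.305 without cells with T, NK or myeloid markers. Without the MS4A1 condition it turned direction and also missed the threshold (adjusted p = 0.899). LMAN1, a cargo receptor, and COPE and COPB2, coat proteins of returning vesicles, had differences of -0.68, -0.70 and -0.76. Leaving out single channels gave adjusted p-values of up to 0.116 for SSR1, 0.0528 for LMAN1, 0.0972 for COPE and 0.151 for COPB2. With at least 20 JCHAIN UMIs the adjusted p-values of SSR1, LMAN1, COPE and COPB2 were 0.145, 0.0961, 0.119 and 0.131. Without cells with early B markers SSR1, LMAN1 and COPB2 had 0.11, 0.0823 and 0.105. By DESeq2 SSR1 and COPB2 had adjusted p-values of 0.116 and 0.238. HSPA5 (BiP), the main luminal chaperone, did not pass (0.10 ± 0.17, adjusted p = 0.793), nor did DERL3 (0.21 ± 0.14, adjusted p = 0.441). CRELD2 was at 302 and 300 in meninges and 354 and 574 in spleen (-0.63 ± 0.21, adjusted p = 0.104), and without spleen 1 it was -0.94 (adjusted p = 1.62e-04).

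Some of these directions turned without the MS4A1 condition, which gave 74 and 75 meningeal and 122 and 220 spleen cells. HSP90B1, SSR1, SEC11C and LMAN1 then had differences of 0.11, 0.23, 0.033 and 0.18, and XBP1 had 0.81. COPE and COPB2 stayed below 0 but missed the threshold (-0.26 and -0.16).

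Of 25 degradation and unfolded protein response genes tested, 4 were higher and 1 lower (median -0.091), beside 5.28 and 1.47% of all genes. In MS4A1-positive B cells of the same channels, 13 of 28 were higher and 6 lower, beside 22.5 and 19.2% of all genes. PPP1R15A, DDIT3, HERPUD1, ATF4 and DERL1 were among the higher ones there. PPP1R15A (GADD34), which restores translation after stress, was at 587 and 247 CPM in meninges and 83.5 and 77.1 in spleen (log2 difference 2.37 ± 0.34, adjusted p = 0.00158). DDIT3 (CHOP), a stress-induced factor, was at 99.0 and 136 against 31.1 and 35.6 (1.81 ± 0.27, adjusted p = 0.00196). HERPUD1 and ATF4 rose by 0.74 and 0.59, and DERL1, a channel component of degradation, had -0.68 (adjusted p = 0.0397). Without meninges 1 the adjusted p-values of HERPUD1, ATF4 and DERL1 were 0.078, 0.0716 and 0.114. ATF4 also missed the threshold without meninges 2 or spleen 1 (up to 0.137), and DERL1 without meninges 2 or spleen 2 (up to 0.251).

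Of 7 class II antigen presentation genes tested, with which a B cell presents antigen, 3 were lower in meningeal plasma cells and 0 higher. Over all genes 1.47% were called lower and 5.28% higher. The other 4 class II genes had positive differences that did not pass, and the median of the 7 was 0.086. MAMU-DRA, a class II chain, was at 737 and 768 CPM in meninges and 1404 and 1648 in spleen (log2 difference -1.02 ± 0.13, adjusted p = 7.36e-04). MAMU-DRB1, its partner, was at 597 and 652 against 1136 and 1225 (-0.92 ± 0.13, adjusted p = 0.00161), and CD74, the invariant chain, at 2150 and 2266 against 3055 and 3664 (-0.61 ± 0.12, adjusted p = 0.0126). All 3 kept the call without each channel. CD74 missed the threshold under 6 of 22 alternatives, among them without cells with early B markers (-0.49, adjusted p = 0.0797) and without those with T, NK or myeloid markers (-0.33, adjusted p = 0.341). Of 11 B cell identity genes tested, SYK and CD79B were lower and LYN higher, and all 3 are parts of B cell receptor signalling. SYK was at 25.6 and 38.3 against 79.6 and 78.6 (-1.28 ± 0.28, adjusted p = 0.0183). CD79B, a signalling chain of the receptor, was at 113 and 118 against 214 and 184 (-0.78 ± 0.19, adjusted p = 0.031), with 0.0756 without meninges 1 and 0.102 without spleen 1. LYN, a kinase, was at 66.5 and 82.4 against 38.8 and 32.6 (1.07 ± 0.28, adjusted p = 0.0383), and it missed the threshold without meninges 2 or spleen 2 (up to 0.118). Without the condition on MS4A1 the difference of LYN was -0.46.

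B cell transcripts in the plasma cell sums moved with these genes. The 22 listed B cell identity genes summed to 657 and 669 CPM in meningeal and 1049 and 852 in spleen plasma cells, against 6230 to 7343 in B cells, and EBF1 was at 0 in all 4 channels. B cells were 1290 and 1393 barcodes in meninges and 3239 and 4010 in spleen. The part of B cell RNA in the class II difference was not tested.

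The named falls included histone genes. H2BC5 was at 30.7 and 49.7 CPM in meninges and 120 and 151 in spleen (log2 difference -1.74 ± 0.28, adjusted p = 0.00274), and HIST1H2AE, H4C15 and the linker histone H1-5 had -1.47, -1.30 and -1.81. Without spleen 2 H4C15 had adjusted p = 0.384 and HIST1H2AE 0.0818, and without meninges 1 HIST1H2AE had 0.109. Histone copies are near-identical, and their counts are uncertain. HSH2D, an adaptor of lymphocyte activation, was at 49.5 and 36.9 against 117 and 138 (-1.57 ± 0.25, adjusted p = 0.00294). LNX1, a ubiquitin ligase, was at 6.82 and 18.5 against 36.9 and 126 (-2.67 ± 0.58, adjusted p = 0.0166), and without spleen 2 it was -1.46 (adjusted p = 0.145). Other falls were LCORL (-1.75), SAMD9L (-1.63), IVD (-1.54) and KHDC4 (-1.38). Of these, SAMD9L missed the threshold without spleen 1 (adjusted p = 0.143), IVD without spleen 2 (0.243) and KHDC4 without meninges 1 (0.0691).

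Other pathways differed in few genes or none. By edgeR 0 of 20 cell cycle genes and 0 of 28 oxidative phosphorylation genes passed, and the 28 had a median of -0.099. Cells with a UMI of MKI67 or TOP2A, genes of dividing cells, were 2, 10, 10 and 15, or 3.70, 16.7, 18.2 and 16.0% (exact two-sided permutation p = 0.667). Of 8 type I interferon genes tested, HERC5 was higher (1.90, adjusted p = 0.0278, and up to 0.096 without meninges 1 or spleen 1). Of 10 glycolysis genes GAPDH was called higher (0.67, adjusted p = 0.0445), with a difference of -0.34 without the 5% of cells with the most UMIs and adjusted p-values of up to 0.173 without meninges 2 or spleen 2. VPREB1, the surrogate light chain of early B cells, passed with 34 and 13 meningeal UMIs, but in each channel all of them came from 1 cell.

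**Figure D3:**
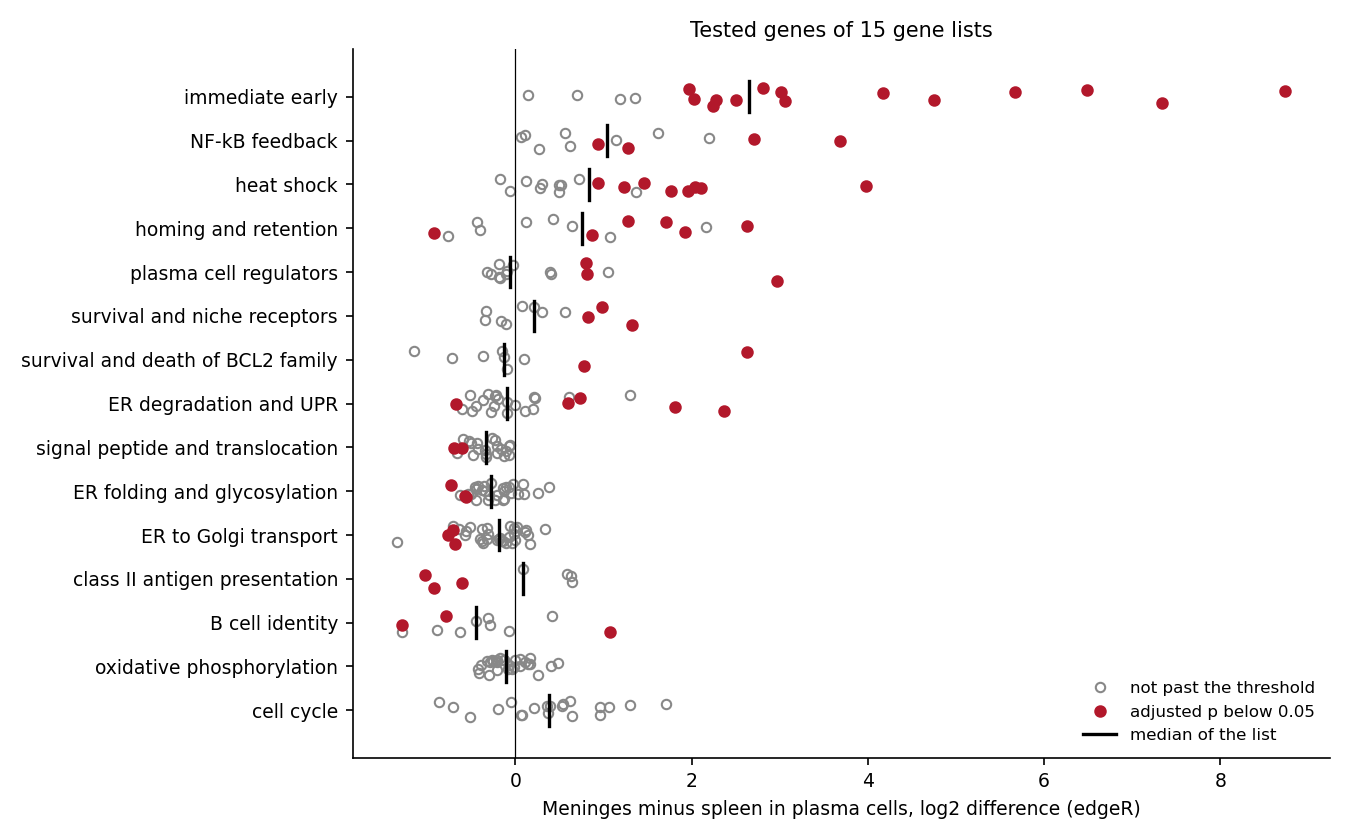
Log2 difference, meninges minus spleen, of each tested gene of 15 lists in plasma cells; red points passed an adjusted p of 0.05 and bars are list medians. The immediate early list has the highest median of these (2.66), and the list for signal peptides and translocation has no point above 0.

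It was next asked whether plasma cells differed between tissues in the way their MS4A1-positive B cells did. The difference of differences was tested with an interaction term over the class sums of the 4 channels. Of 10011 genes, 387 (3.87%) passed, with 203 (2.03%) more positive in plasma cells and 184 (1.84%) more negative. Without meninges 1 the count was 253. At an unadjusted p under 0.05 there were 1414.

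KLF6 had a larger rise in plasma cells. In B cells it was at 544 and 527 CPM in meninges and 83.6 and 88.7 in spleen (log2 difference 2.64), so the meningeal levels of plasma cells (578 and 663) were close to those of B cells while the splenic ones (5.83 and 7.41) were lower. The interaction was 3.94 (adjusted p = 7.79e-08). SPATS2L, an RNA-binding stress granule protein, and GBP3, an interferon-inducible GTPase, also had positive interactions of 3.20 and 3.04, with 85.3, 125, 21.4 and 1.48 and with 54.6, 78.1, 3.88 and 13.3 CPM in plasma cells and no difference past the threshold in B cells (0.21 and -0.12). BCL2 had 1.83 (adjusted p = 3.15e-04), with a B cell difference of 0.85.

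The remaining positive genes rested on 1 channel. IGKV4-1, a light chain variable segment, had 6.65, and 811 of its 813 UMIs in meninges 2 came from 1 cell. Without meninges 2 the value was -0.12. GZMB (3.91) and PLAC8 (3.88) had 146 and 182 UMIs in meninges 1, of which 1 cell gave 74 and 94. Without meninges 1 they had -0.22 and 1.09 (adjusted p = 0.405).

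Among the named negative interactions, TENT5C, RGS2, RGCC, MT1X and CXCR5 had risen in meningeal B cells. TENT5C, a poly(A) polymerase that stabilises immunoglobulin transcripts, was at 1307 and 1108 in meninges and 769 and 1069 in spleen in plasma cells (adjusted p = 0.206), against a B cell difference of 3.77, and its interaction was -3.32 (adjusted p = 2.62e-11). RGS2 (-3.38) and RGCC (-3.15), regulators of G protein signalling and of the cell cycle, had B cell differences of 4.12 and 5.28. MT1X had -4.12, with 6.63 in plasma cells and 11.80 in B cells. CXCR5 (-4.40), the receptor for B cell follicles, and GPR18 (-4.38), a lymphocyte lipid receptor, had at most 1.42 CPM in meningeal plasma cells and 7.77 to 15.5 in spleen. Both rest on a group near 0 UMIs: without meninges 2 the values were -10.04 and -9.99, and by DESeq2 the adjusted p-values were 0.0546 and 0.0541. Without spleen 2 the adjusted p-values of CXCR5, MT1X and RGCC were 0.132, 0.511 and 0.144.

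By list, 5 of 15 plasma cell regulators had a negative interaction and 0 a positive one, beside 1.84 and 2.03% of all genes. The negative regulators were TENT5C, ELL2, IRF4, XBP1 and KLF13. XBP1 had -1.21 (adjusted p = 0.00288), with -0.03 in plasma cells and 1.23 in B cells, and ELL2, an elongation factor that favours secreted immunoglobulin, had -2.29 with -0.18 and 2.17. IRF4 had -1.66, with 0.80 in plasma cells and 2.51 in B cells. Of 9 class II genes 3 had a negative interaction and 1 a positive one (median -0.40). The negative ones were MAMU-DRA (-1.27), MAMU-DRB1 (-1.12) and CD74 (-0.75), and the positive one was MAMU-DOB, a chain of the peptide-loading regulator DO (1.08, adjusted p = 0.00385). MAMU-DRA and MAMU-DRB1 were higher in meningeal B cells (0.30 and 0.25), and MAMU-DOB was lower there (-0.40). Without meninges 1 the interactions of CD74 and MAMU-DOB had adjusted p = 0.0622 and 0.101. HSP90B1 had -1.17 (adjusted p = 4.76e-07), with 0.50 in B cells. Of 25 immediate early genes, KLF6 and DUSP1 had positive and 7 had negative interactions, DUSP1 missed the threshold without spleen 1 (adjusted p = 0.083), and FOS had 0.47 (adjusted p = 0.453).

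**Figure D4:**
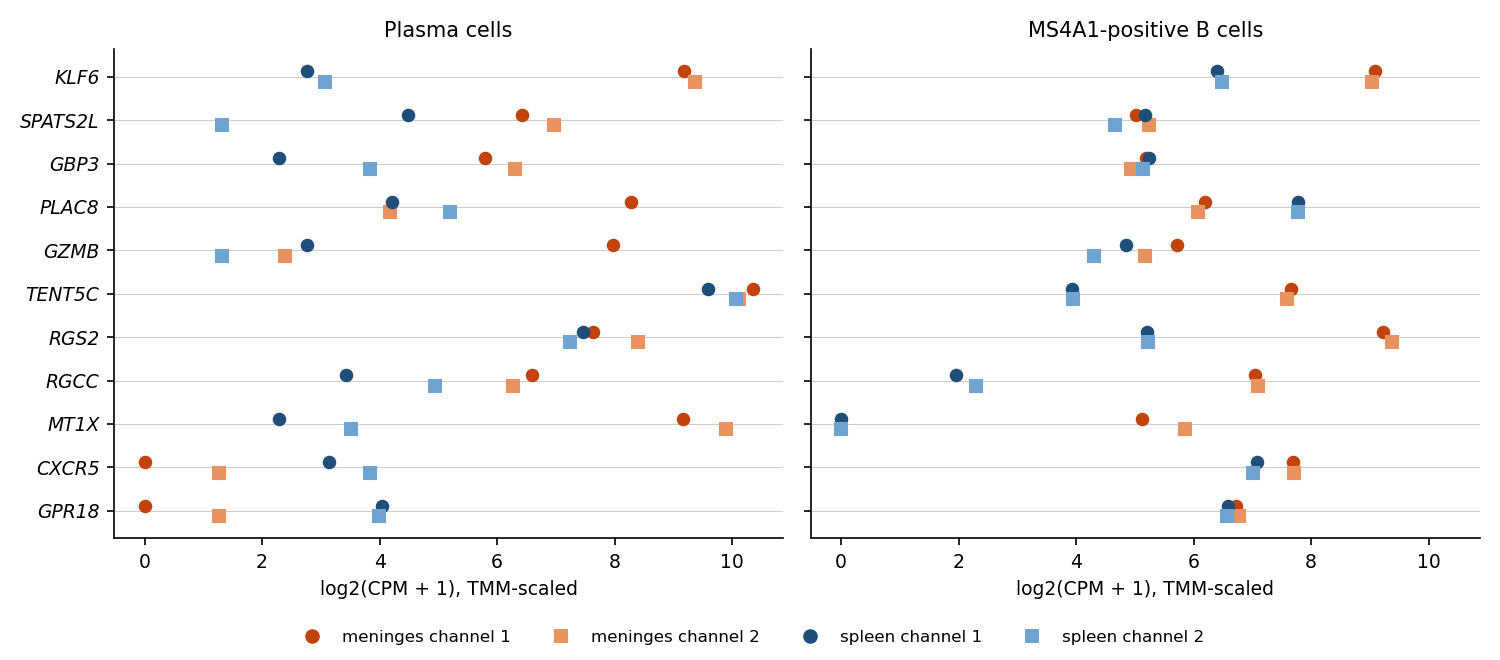
Levels of 11 genes with an interaction of cell class and tissue, as log2(CPM + 1) per channel in plasma cells and MS4A1-positive B cells. KLF6 is at a like level in both classes in meninges and lower in splenic plasma cells, and TENT5C is high in plasma cells of all 4 channels while it differs between tissues in B cells.

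Plasma cells expressing IGHM were then compared with the remaining ones of the same channels. The minimum of 10 cells per class admitted only the spleen channels, where 3 of 2744 features (0.109%) passed, 2 higher in IGHM-high cells (0.0729%) and 1 lower (0.0364%). All were identifiers without a symbol, with 193 at an unadjusted p under 0.05. DESeq2 called 7. With a minimum of 5 cells, chosen after the data were seen, all 4 channels entered with the channel as a block, and 14 of 2449 features (0.572%) passed, 6 (0.245%) higher in IGHM-high cells and 8 (0.327%) lower. Of the 14, 6 had no symbol. They included ENSMMUG00000015202 and ENSMMUG00000002764, with log2 differences of -9.25 and -6.49, which the near-exclusive dominance of the 4 features already describes.

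TNFRSF17 was higher in IGHM-high cells of every channel. It was at 403, 193, 99.9 and 97.8 CPM in IGHM-high cells of meninges 1, meninges 2, spleen 1 and spleen 2, and at 87.3, 72.9, 31.2 and 20.9 in IGHM-low cells (log2 difference 1.86 ± 0.35, adjusted p = 0.0219). UMIs were present in 20 of 37 IGHM-high and 66 of 226 IGHM-low cells. Within each tissue the classes did not overlap. Without meninges 1, meninges 2 or spleen 2 the adjusted p was 0.0861, 0.0694 and 0.219, with differences of 1.72 to 2.02 over the left-out channels.

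MOCOS, an enzyme that activates molybdenum-dependent oxidases, had the largest rise among named genes, at 215, 258, 127 and 65.2 CPM against 18.6, 34.9, 7.81 and 15.7 (3.03 ± 0.41, adjusted p = 8.87e-04). It was found in 11 of 37 and 30 of 226 cells. MT2A was at 6228, 5369, 127 and 1054 against 1511, 2263, 49.5 and 59.2 (2.18 ± 0.37, adjusted p = 0.0101), so it differed both by class and, as above, by tissue. MOCOS and MT2A stayed past the threshold without each channel. FTH1, the heavy chain of the iron store ferritin, had 1.15, and HCST, the adaptor DAP10, had 1.34, and both missed the threshold without single channels (adjusted p up to 0.452 without meninges 2 for FTH1, and 0.0887 to 0.235 without any channel for HCST). CD3D was higher by 1.36 (adjusted p = 0.0309, and 0.201 and 0.243 without meninges 2 and spleen 2), with UMIs in 19 of 37 and 62 of 226 cells. It is a T cell gene, CD3E was 0 by rule, and the part of T cell RNA in this value was not tested.

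GADD45A and TXNIP were lower in IGHM-high cells. GADD45A, induced by DNA damage, was at 26.8, 80.6, 18.2 and 0 CPM against 147, 257, 174 and 120 (-2.70 ± 0.50, adjusted p = 0.0198), with UMIs in 5 of 37 and 100 of 226 cells. TXNIP, an inhibitor of thioredoxin and of glucose uptake, was at 161, 468, 109 and 348 against 606, 971, 654 and 776 (-1.60 ± 0.29, adjusted p = 0.0168). The classes did not overlap in either gene. Without spleen 2 the adjusted p was 0.156 for GADD45A and 0.0956 for TXNIP, and without spleen 1 it was 0.099 for GADD45A. In the spleen channels alone, where 11 and 13 IGHM-high cells remained, these 8 genes kept their direction with adjusted p-values of 0.0684 to 0.489. IGHM-high cells numbered 5 to 13 per channel, which limits what a test could find.

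JCHAIN, a gene of the rule, was higher in IGHM-high cells of each channel as a description. It was at 91025, 105900, 31711 and 58370 CPM against 28338, 40797, 13825 and 14601. The plasma cell factors did not pass between the classes: XBP1 had -0.81 (adjusted p = 0.447), PRDM1 -0.44 (adjusted p = 0.941) and IRF4 0.36 (adjusted p = 0.929).

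**Figure D5:**
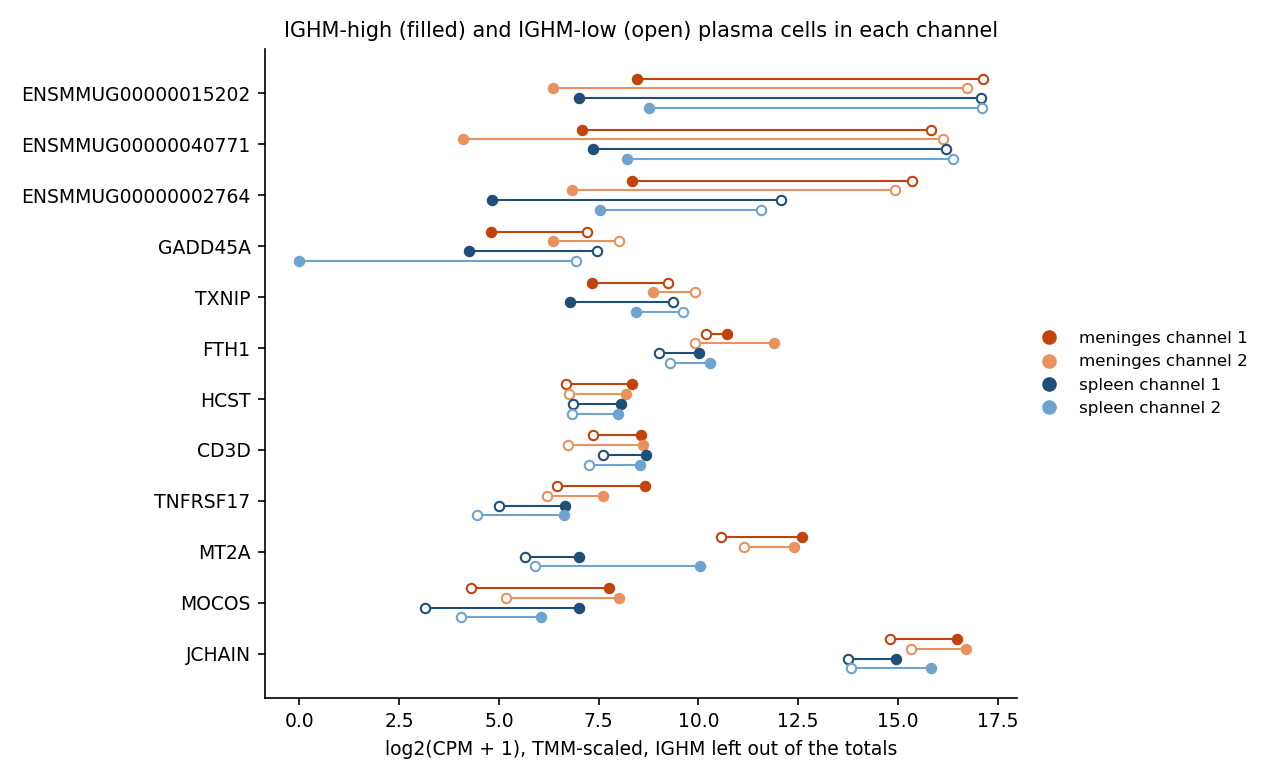
Level of 12 features in IGHM-high (filled) and IGHM-low (open) plasma cells of each channel, as log2(CPM + 1). TNFRSF17 and MOCOS are higher and GADD45A and TXNIP lower in the filled points of all 4 channels, and JCHAIN is shown as a gene of the rule, without a test.

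Whether the IGHM difference itself varied between tissues could be tested only with the minimum of 5 cells. Of 2449 genes 12 (0.490%) passed, 204 had an unadjusted p under 0.05, and DESeq2 called 0, with 100 at an unadjusted p under 0.05. INSIG1, a brake on sterol synthesis, was at 564 and 822 CPM in IGHM-high against 79.9 and 103 in IGHM-low cells of meninges, and at 27.2 and 21.7 against 52.1 and 24.4 in spleen (interaction 3.54, adjusted p = 0.0239). FGL2, a secreted immunoregulatory protein, had the same form, with 778 and 419 against 269 and 133 in meninges and 81.7 and 120 against 161 and 190 in spleen (2.40, adjusted p = 0.0368). Leaving out any 1 channel took INSIG1 and FGL2 over the threshold, with adjusted p-values of 0.0946 to 0.545 and 0.173 to 0.413. The interaction count ran from 2 to 12 over the left-out channels and was 0 with IGHM cuts of 0.3 or 3%.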

How the data were processed

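The deposited values were raw UMI counts, by gene and barcode. The submitters' processing notes name Cell Ranger as the authors' tool and mm10 as a build, for macaque libraries as well. Which macaque reference was used is not given in the sources read. Genes seen in fewer than 3 cells of a channel had been left out of its table, and they were taken as 0. Of 14949 genes listed in any table, 2521 are Ensembl identifiers without a symbol and 0 were matched to a name. They were counted and tested, and 4 are named. No coordinates or sequences were used.

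In the order meninges 1, meninges 2, spleen 1 and spleen 2, depth was 19.018, 19.763, 20.11 and 21.992 M UMIs (M, 1000000) over 4073, 4313, 5840 and 6786 barcodes, of which 4068, 4308, 5839 and 6783 had at least 300 genes. The plasma cells gave 637699, 733425, 465974 and 657552 UMIs. No doublet caller was run, and an alternative left out the top 5% of cells by UMIs. MS4A1-positive B cells had at least 3 UMIs of MS4A1 and none of RGS13 or CD3E, GZMB-positive cytotoxic lymphocytes at least 3 each of GZMB and NKG7 and none of MS4A1 or RGS13, and both had fewer than 5 of JCHAIN. The plasma cells, gene lists and tests were chosen with earlier results of these data known.

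Counts were summed per channel and class and tested with edgeR 4.0.16 in R 4.3.3 (quasi-likelihood test, trimmed-mean factors and filterByExpr), with p-values adjusted by Benjamini-Hochberg over all features tested and a threshold of 0.05. Every adjusted p in the text comes from it unless DESeq2 1.42.0 is named. CPM are scaled by the trimmed-mean factors, except those at the edges of the cell rule and summed over marker lists. The classes IGHM-high and IGHM-low were compared with the channel as a block. Shares were compared by an exact permutation test in scipy 1.17.1 (Python 3.11.15, numpy 2.4.6, pandas 2.3.3), and plots drawn with matplotlib 3.10.9. The scripts were tested on simulated counts. A fold against a tissue at 0 was computed against 3 UMIs over that tissue.

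Genes named between tissues had a symbol, a mean log2 CPM of 5 or more and both channels of a tissue beyond those of the other, and were the 12 with the highest and the 12 with the lowest log2 difference among those called. Also named were the 8 largest in each direction between IGHM classes, the 6 largest in each direction of the interaction with B cells and the 4 largest of the interaction of IGHM class and tissue, with list members and markers; 1 of the falls is not reported here. The planned minimum of 10 cells per IGHM class left only spleen, so a minimum of 5 was added. Alternatives covered the cell rule, normalization, filters, DESeq2, blocks and leaving out each channel.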

Additional observations from a re-analysis of the deposited data

Results flagged for a closer look

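In 12 genes the difference between meninges and spleen was itself different in plasma cells and in MS4A1-positive B cells, by the edgeR interaction test with an adjusted p under 0.05. The interaction values on the log2 scale, positive where plasma cells had the larger rise in meninges, were 6.65 for IGKV4-1, 3.94 for KLF6, 3.91 for GZMB, 3.88 for PLAC8, 3.20 for SPATS2L and 3.04 for GBP3. They were -4.40 for CXCR5, -4.38 for GPR18, -4.12 for MT1X, -3.38 for RGS2, -3.32 for TENT5C and -3.15 for RGCC. IGKV4-1, GZMB and PLAC8 depended on 1 meningeal channel, with -0.12 without meninges 2 for IGKV4-1 and -0.22 and 1.09 without meninges 1 for GZMB and PLAC8.

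In 8 genes the difference between IGHM-high and IGHM-low plasma cells differed between the tissues by the same kind of test, with the minimum of 5 cells chosen after the data were seen. The values, positive where IGHM-high cells were relatively higher in meninges, were 5.54 for RGS1, 3.54 for INSIG1, 2.92 for DAPP1, 2.40 for FGL2, -8.79 for CD52, -4.25 for STMN1, -3.83 for HMGB2 and -3.80 for GAPDH. In spleen 1, 66 of 93 UMIs of STMN1 and 79 of 109 of HMGB2 in IGHM-high cells came from 1 cell, and in meninges 2, 43 of 81 UMIs of RGS1 did. Each of the 8 missed the threshold without at least 2 of the channels, and CD52 was at 0 in the IGHM-high cells of both meningeal channels.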

How the results depend on the processing

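The count of genes differing between meninges and spleen in plasma cells (336) became 160 with at least 20 JCHAIN UMIs, 931 without the MS4A1 condition (62.2% of them higher in meninges, against 78.3%), 19 among IGHM-high cells alone, 151 with cells thinned to 2000 UMIs (chosen after seeing the data), 555 without a filter on low counts and 183 by DESeq2. The share higher in meninges was 88.1% with at least 20 JCHAIN UMIs and 89.2% without cells with early B markers. Leaving out each channel gave 333 to 454. With the replicate number as a block it was 352. Over genes, the deviations of meninges 1 and spleen 1 from their tissue means had a correlation of -0.0546. With 2 channels per tissue this cannot show whether same-numbered channels share an animal or a day. The interaction with B cells (387) was 156 against cytotoxic lymphocytes and 253 to 428 without single channels, the lowest without meninges 1. For IGHM-high against IGHM-low in spleen (3), the count was 4 without the replicate block, 9 at an IGHM cut of 0.3%, 25 with RLE size factors, 42 without the filter and 7 by DESeq2. With the added minimum of 5 cells it was 14, then 54 at a cut of 3%, 46 with cells between 0.3 and 3% left out, 11 with at least 20 JCHAIN UMIs and 9 to 15 without single channels. The interaction of IGHM class and tissue (12) fell to 0 at cuts of 0.3%, 3% and with the gap, to 1 with at least 20 JCHAIN UMIs and to 0 by DESeq2, rose to 28 without the filter and ran from 2 to 12 without single channels. With the minimum of 10 cells, the 3% cut, the gap, the JCHAIN setting and leaving out a spleen channel could not be run, nor could that interaction. The share of plasma cells (difference 0.196 percentage points) was -0.190 with at least 1000 genes, -0.886 without the MS4A1 condition and -0.026 to 0.418 without single channels. The IGHM-high share (difference -5.62) was 1.25 without the MS4A1 condition and -8.71 to -2.54 without single channels.

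Among 82 genes, 1395 of 1711 alternative values of the tissue difference kept direction and side of the threshold, 275 missed it, 23 newly passed and 18 turned. The turned values were -0.72 for IGHM in IGHM-low cells, -1.03 for ENSMMUG00000002764 in ENSMMUG00000015202-dominated cells (a choice that leaves out nearly all cells dominated by the former) and, without the MS4A1 condition, 0.58 for ENSMMUG00000040771, 0.81 for XBP1, 0.11 for HSP90B1, 0.23 for SSR1, 0.033 for SEC11C, 0.25 for PDIA6, 0.19 for RPN2, 0.18 for LMAN1, 0.040 for DERL1, -0.46 for LYN and -0.23 for GAPDH. GAPDH also had -0.00864 without cells with early B markers, -0.073 without those with T, NK or myeloid markers, -0.34 without the top 5% of UMIs, -0.044 without MKI67 or TOP2A cells and -2.93 among IGHM-high cells. Between the IGHM classes with 4 channels, 39 of 64 values of 8 genes kept the call and 25 missed the threshold. In the interactions, IGKV4-1 turned to -0.12 without meninges 2 (range over single channels -0.12 to 8.03), GZMB to -0.22 without meninges 1 (-0.22 to 5.07), RGS1 to -4.11 without meninges 2, and STMN1 and HMGB2 to 1.26 and 1.14 at the 3% cut. The cause of these changes was not tested. The number of IGHM-high cells, 5 to 13 per channel, limits the comparisons that use them.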

Other observations

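Ribosomal protein genes, a list chosen after values had been seen, were higher in meningeal plasma cells in 30 of 62 tested and lower in 0, with a median log2 difference of 0.42 against -0.0053 over all genes, where 5.28% of all genes were called higher. Plasma cells with at least 2 UMIs of plasmacytoid dendritic cell markers numbered 9, 4, 5 and 6 in meninges 1, meninges 2, spleen 1 and spleen 2. Of 10 such markers 7 were listed, and they summed to 100, 28.6, 36.5 and 47.1 CPM in plasma cells of these channels. In MS4A1-positive B cells they summed to 96.5, 91.3, 54.8 and 58.0. LILRA4 was at 0 in all of the thinned cells, a value that genes missing from the tables also take.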
